A study of Mus musculus with 10 samples.

Results

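The Hox genes and the genes of their Meis and Pbx partners were followed across 3 mouse muscles. Members were chosen by their symbol in GENCODE M21, an annotation of the mouse genome build GRCm38, as Hox genes of the clusters A to D or as Meis or Pbx genes. Of the 16112 genes of the deposited count tables, 23 are described here as members. These were 19 of the 39 annotated Hox genes (7 of the 11 genes of HoxA, 2 of the 10 of HoxB, 7 of the 9 of HoxC, and 3 of the 9 of HoxD), Meis1 and Meis2, and Pbx2 and Pbx3. The other genes of these families were not analysed here.

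Hox genes encode homeodomain transcription factors that stand in clusters in the genome, and members with the same number in different clusters are paralogs. Their order along a cluster matches the order of their domains along the body axis and along the limb, so that low-numbered paralogs are used toward the head and high-numbered ones toward the tail and the distal limb. The settings laid down in the embryo are often kept in adult tissue, in connective tissue cells in particular. Meis and Pbx proteins are homeodomain proteins of the TALE class (with a loop of additional residues in the homeodomain) that bind DNA together with Hox proteins.

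RNA was sequenced from the extensor digitorum longus (EDL, a fast muscle of the lower leg, n = 3), the psoas (a fast muscle between the lumbar spine and the thigh bone, n = 3), and the soleus (a slow muscle of the calf, n = 4). All mice were wild type and of the strain B6C3Fe a/a-Ttnmdm/J, the colony in which a titin mutation is kept. EDL and psoas replicates 1, 2, and 3 were taken at 42, 54, and 44 days of age, and soleus replicates 1 to 4 at 42, 44, 32, and 44 days. The 10 libraries carry 7 animal codes, and 3 of these stand for 2 muscles each, so that p-values describe the spread between these libraries. The study's methods name fewer mice than there are codes, so that further libraries may share a mouse.

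The shallowest library, soleus 3, held 12737971 counts, and the deepest, psoas 1, held 50431713. Where no read was seen, up to 3 remain possible, that is, 0.0595 CPM (counts scaled to a common library size) in psoas 1 and 0.236 CPM in soleus 3. These limits cover counting error only. The authors trimmed the reads of EDL 1, EDL 2, psoas 1, and psoas 2 for quality, and these 4 libraries are from males, while EDL 3, psoas 3, soleus 2, and soleus 4 are from females. In EDL and psoas, trimming and sex thus coincide and cannot be told apart. Soleus 1 shares its animal code with psoas 1, and the sex of soleus 3 is not given. The 6 muscle fiber genes checked (Ckm, Acta1, Ttn, Mb, Myh4, and Pvalb) differed in summed level between the muscles without overlap. They summed to 85760 to 121100 normalized CPM in EDL, 136400 to 153200 in psoas, and 67050 to 82730 in soleus. In bulk tissue, fewer cells of a type and less RNA per cell cannot be told apart.

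Psoas stood apart from EDL in genes of HoxA and HoxC. It lacked reads of Hoxa11 and Hoxa13, the highest HoxA paralogs, which were read in every EDL and soleus library, and its levels of Hoxc5 and Hoxc8 were higher than in EDL by 3.66-fold and 6.38-fold. Hoxc11 went the other way from its neighbours in the cluster, since it was lowest in psoas and higher in soleus than in psoas by 5.21-fold. Of 23 alternative settings of the test, 10 kept the call of Hoxc5 and 14 that of Hoxc8 in psoas vs EDL. For Hoxc11 in soleus vs psoas, 11 kept it, while all 23 kept those of Hoxa11 and Hoxa13 against psoas. EDL had the highest mean levels of Hoxa10, Hoxa11, and Hoxa13, though Hoxa13 overlapped between EDL and soleus. Hoxa10 was not called by edgeR against either of the other muscles. Between soleus and EDL, edgeR called 0 of 23 members, where 5.77% of all genes were called, and 9 had an unadjusted p under 0.05, where 35% of all genes had one (DESeq2 called 1, Hoxa11).

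Genes were taken as detected in a library above 3 reads, the number that a count of 0 allows. All 23 members had passed a minimum of reads before deposit, 5 of them only with certain muscles counted, as given below. Detection is thus partly built in, and the numbers do not rank the muscles. In EDL, 20 of the 23 members were detected in all 3 libraries. The exceptions Hoxb4, Hoxc8, and Meis2 missed the limit in EDL 3, one of the shallower libraries. In psoas, 17 members were detected in all 3 libraries, and 3 were detected in none, namely Hoxa11, Hoxa13, and Hoxd10. In soleus, 15 members were detected in all 4 libraries, and each of the other 8 (Hoxa4, Hoxb4, Hoxb7, Hoxc4, Hoxc6, Hoxc8, Hoxd10, and Meis2) was detected in at least 1. With counts scaled down to the total of the shallowest library, these numbers were 18, 16, and 15, and the same 3 members were detected in no psoas library.

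**Figure D1:**
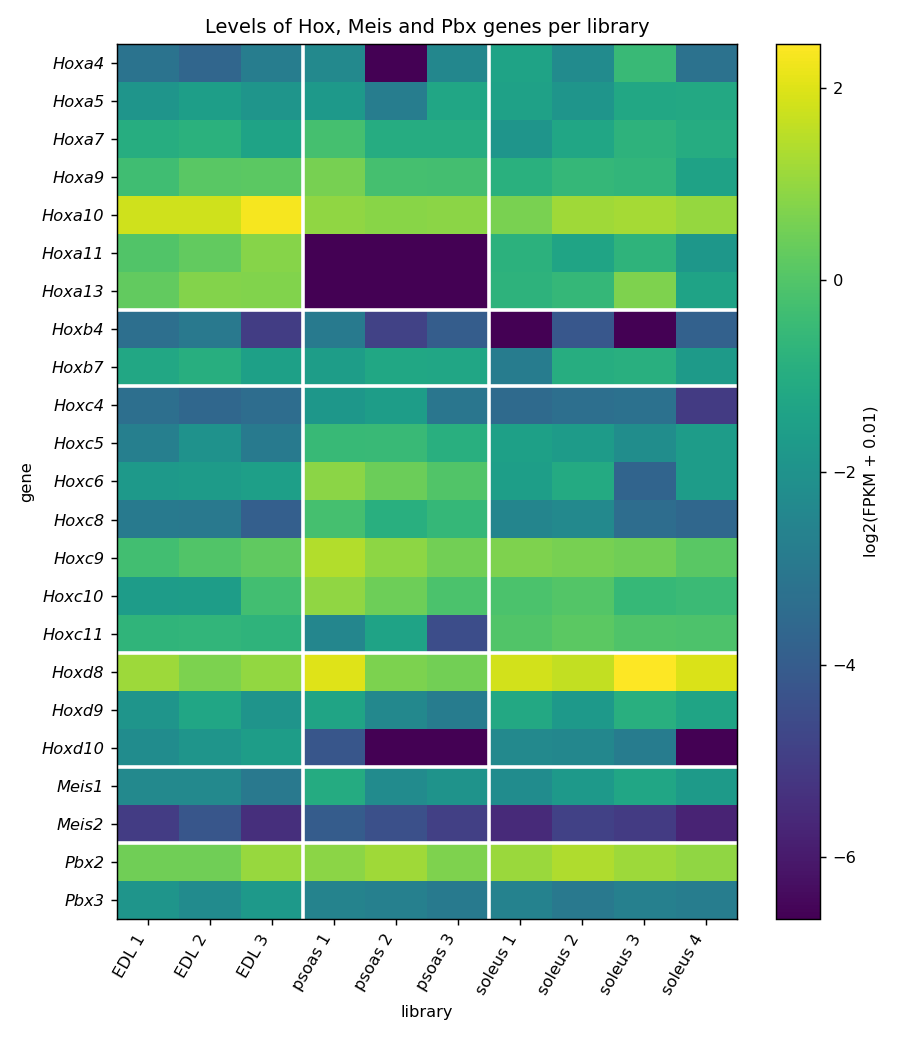
Levels of the 23 members (rows, grouped by cluster and cofactor family) in the 10 libraries (columns), as log2(FPKM + 0.01), with darker color for lower levels. Hoxa11 and Hoxa13 are at 0 in the 3 psoas libraries, and Hoxa10 is brightest in the 3 EDL libraries.

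Levels were compared between genes as FPKM (counts per kilobase of exon, scaled to library size). Weighting the 3 muscles equally, Hoxd8 had the highest mean FPKM of the members at 2.75, followed by Hoxa10 at 2.62, Pbx2 at 1.90, and Hoxc9 at 1.45. The median over all genes with a length was 1.49 FPKM, so that Hoxd8, Hoxa10, and Pbx2 were above it and the other 20 members below. The lowest means belonged to Hoxb4 at 0.0567 and Meis2 at 0.0266 FPKM. Hoxd8 was first in psoas and in soleus, and Hoxa10 was first in EDL.

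The summed FPKM of the 19 Hox genes differed between the 3 muscles by less than its SD, at 14.4 ± 1.81 in EDL (SD, n = 3), 13.4 ± 4.04 in psoas (n = 3), and 13.9 ± 2.17 in soleus (n = 4). The clusters shared this sum differently. HoxA made up 60.1% ± 2.86 (SD) in EDL, 29.8% ± 5.29 in psoas, and 35.4% ± 3.70 in soleus. HoxC made up 18.9% ± 0.557 in EDL, 48.5% ± 5.11 in psoas, and 29.4% ± 6.57 in soleus. HoxD made up 17.4% ± 2.71, 18.1% ± 5.73, and 32.4% ± 4.49, and HoxB between 1.01% and 4.51% in any library. The lowest HoxA share of an EDL library, 57.2%, was above the highest of the others, 40.6% in soleus 3, and the lowest HoxC share of a psoas library, 44.7%, was above the highest of the others, 34.4% in soleus 2. The lowest HoxD share in soleus, 26.0% in soleus 2, was above the highest elsewhere, 24.7% in psoas 1.

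Split by paralog number, the 10 genes of paralogs 4 to 8 made up 27.8% ± 4.96 of the summed Hox FPKM in EDL, 49.7% ± 3.15 in psoas, and 45.4% ± 3.93 in soleus (SD, n = 3, 3, and 4). Paralogs 9 and 10 (6 genes) made up 48.4% ± 3.84, 48.8% ± 1.99, and 38.7% ± 4.19. Paralogs 11 and 13 (Hoxa11, Hoxc11, and Hoxa13) made up 23.8% ± 1.85 in EDL, 1.49% ± 1.504 in psoas, and 16.0% ± 2.27 in soleus. The groups of libraries did not overlap between psoas and the other muscles in the share of paralogs 11 and 13, which was at most 3.19% in psoas and at least 13.1% in soleus. These shares are descriptions without a test.

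**Figure D2:**
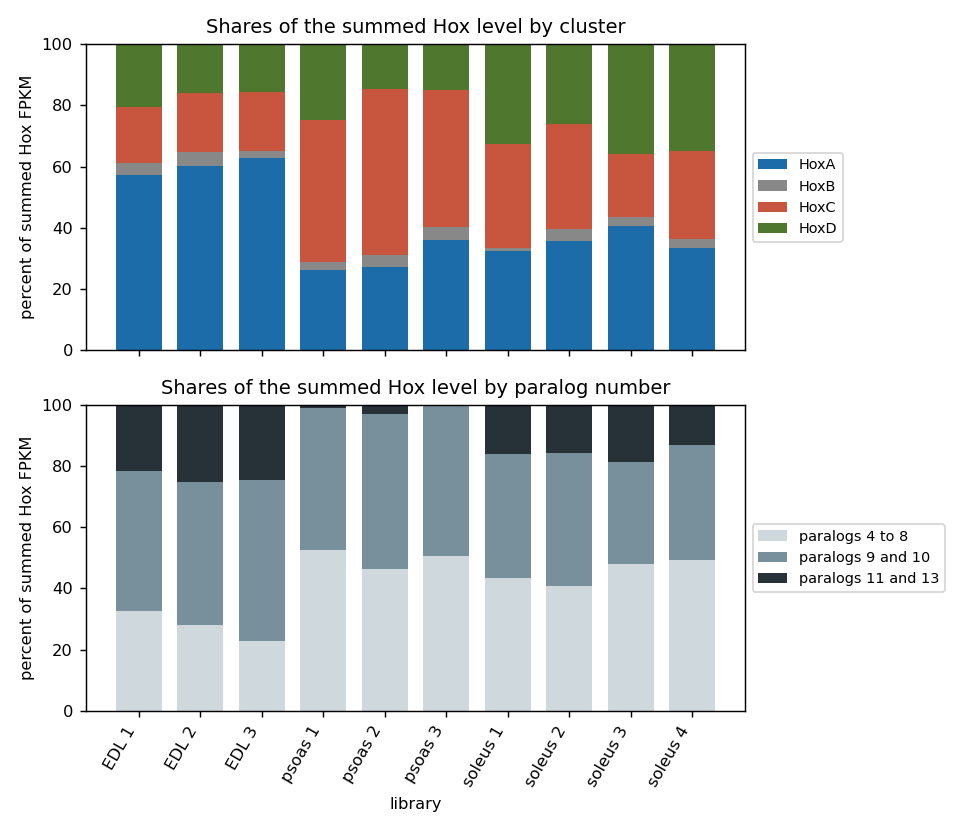
Share of the summed Hox FPKM (percent, vertical axis) in each of the 10 libraries by cluster (top) and by paralog number (bottom). HoxA is the largest cluster in the EDL libraries (57.2% to 62.9%), HoxC in the psoas libraries (44.7% to 54.3%), and paralogs 11 and 13 take at most 3.19% in psoas.

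Differences between muscles were tested gene by gene with edgeR's quasi-likelihood test over all 16112 genes and 10 libraries, and a gene counted as called where its p after Benjamini-Hochberg adjustment was below 0.01 and its levels differed by more than 2-fold. Between psoas and EDL, 4 of the 23 members were called, against 2.11% of all genes. Hoxc5 and Hoxc8 were higher in psoas (2 of 23, where 0.54% of all genes were called higher), and Hoxa11 and Hoxa13 were lower (2 of 23, where 1.57% of all genes were). DESeq2 called 9 of 23 in this comparison, adding Hoxa10, Hoxc6, Hoxc9, Hoxc10, and Hoxc11, and it called 1095 of all 16112 genes. Between soleus and EDL, edgeR called 0 of 23 members, where it called 5.77% of all genes (3.59% higher and 2.18% lower in soleus). In this comparison, 9 members had an unadjusted p under 0.05 in either direction, where 35% of all genes did, and DESeq2 called Hoxa11 lower in soleus. Between soleus and psoas, 5 of 23 members were called, against 5.69% of all genes. Hoxa11, Hoxa13, and Hoxc11 were higher in soleus (3 of 23, against 2.99% of all genes), and Hoxc6 and Hoxc8 were lower (2 of 23, against 2.71%).

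At an adjusted p under 0.05 with the same fold, 9, 1, and 6 members passed in the 3 comparisons, and 7.65%, 11.5%, and 9.7% of all genes did. The libraries of the muscles did not overlap for 13 of 23 members between psoas and EDL, for 8 between soleus and EDL, and for 8 between soleus and psoas, where 29.6%, 29.5%, and 25.8% of all genes did not overlap. All 7 HoxC genes were among the 13 of psoas and EDL. The median log2 fold change over the members was 0.21 in psoas vs EDL (all genes 0.01), 0.03 in soleus vs EDL (all genes -0.05), and -0.03 in soleus vs psoas (all genes 0.02). Setting Hoxa11 and Hoxa13, without reads in psoas, to their bounds cannot move the medians against psoas, since both genes stay at the end of the ranking. Each pair of these comparisons shares the libraries of 1 muscle, so that they are not independent of each other.

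The genes of the deposited tables have at least 10 reads in at least 3 libraries. For Hoxa11 and Hoxa13, 7 libraries met this minimum, the 3 of EDL and the 4 of soleus, so that they would have passed without either muscle. Hoxd10 and Meis2 passed only with the EDL libraries counted, Hoxa4 only with those of psoas and of soleus, and Hoxb4 and Hoxc4 only with those of EDL and of psoas. The counts of detected, called, and non-overlapping members above are therefore counts over genes that a sufficient level in some muscle let pass, and they are given as a description.

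The HoxA genes lie on the minus strand of chromosome 6, with Hoxa13 at the upstream end of the cluster (52257694 to 52260880), followed by Hoxa11 (52242106 to 52245810), Hoxa10 (52231197 to 52240854), Hoxa9, Hoxa7, Hoxa5, and Hoxa4. The starts of Hoxa10 and Hoxa11 are 4956 bases apart, and psoas had reads of the former and none of the latter. The 250 bases before the starts of these 3 genes, and of Hoxd10, the highest HoxD paralog analysed, are shown to place the genes at that boundary. They are RefSeq promoter windows (GRCm38.p6) written 5′ to 3′ on the strand of the gene, with CpG dinucleotides in capitals.
Hoxa10, chr6:52240855-52241104, minus strand: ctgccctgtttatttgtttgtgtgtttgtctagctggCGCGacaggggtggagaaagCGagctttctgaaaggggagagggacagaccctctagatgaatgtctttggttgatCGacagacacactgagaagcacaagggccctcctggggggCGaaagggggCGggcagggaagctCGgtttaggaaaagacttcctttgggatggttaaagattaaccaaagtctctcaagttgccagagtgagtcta
Hoxa11, chr6:52245811-52246060, minus strand: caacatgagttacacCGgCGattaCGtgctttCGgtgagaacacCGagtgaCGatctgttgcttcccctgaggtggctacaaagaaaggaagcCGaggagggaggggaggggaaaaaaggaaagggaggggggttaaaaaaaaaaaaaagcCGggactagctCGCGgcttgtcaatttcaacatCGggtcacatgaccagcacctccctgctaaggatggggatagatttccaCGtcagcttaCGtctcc
Hoxa13, chr6:52260881-52261130, minus strand: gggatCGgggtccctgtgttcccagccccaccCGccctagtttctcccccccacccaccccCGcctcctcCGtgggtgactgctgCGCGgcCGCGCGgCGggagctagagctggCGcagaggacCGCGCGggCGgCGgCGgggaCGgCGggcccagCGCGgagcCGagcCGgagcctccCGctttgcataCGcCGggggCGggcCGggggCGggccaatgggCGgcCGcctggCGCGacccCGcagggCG
Hoxd10, chr2:74691641-74691890, plus strand: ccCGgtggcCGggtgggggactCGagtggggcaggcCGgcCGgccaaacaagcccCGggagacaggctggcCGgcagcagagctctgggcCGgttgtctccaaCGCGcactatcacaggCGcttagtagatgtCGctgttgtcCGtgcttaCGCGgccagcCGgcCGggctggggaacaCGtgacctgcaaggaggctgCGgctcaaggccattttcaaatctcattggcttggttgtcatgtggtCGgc

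Of the 23 members, 14 had a window in RefSeq, 11 of them Hox genes with 12 windows, since Hoxa10 has 2 starts. The window printed for Hoxa10 is the one whose start is that of the gene in GENCODE M21. The 4 windows hold 7, 13, 35, and 20 CpG dinucleotides and have a GC content of 51.6%, 52.0%, 80.0%, and 65.6%. Among 32851 promoter windows of the same length, the median was 6 CpG, and 97% had fewer than that of Hoxa13. The window of Hoxa11 overlaps exons of the antisense gene Hoxa11os and of Gm28032. The letters TGATNNAT, which Hox and Pbx proteins can bind together, and TGACAG, which Meis proteins can bind, were sought on both strands. None of the 12 Hox windows holds either of them, where 7.68% and 15.9% of all windows do, and this says only that these letters are not within these 250 bases.

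Hoxa13, which acts in the hand and foot plate and the hindgut, had 130, 223, and 76 reads in EDL 1, 2, and 3, no read in psoas 1, 2, or 3, and 21, 56, 50, and 18 reads in soleus 1 to 4. In normalized CPM (after TMM scaling of the library sizes), these were 3.04, 4.20, and 4.17 in EDL and 1.44, 1.68, 3.99, and 0.95 in soleus. The psoas libraries were thus all at 0 and below every other library, while soleus 3 reached the range of EDL and the other soleus libraries did not. Set against the 3 reads that a count of 0 allows in each psoas library (a mean of 0.161 normalized CPM), Hoxa13 was at least 23.7-fold higher in EDL and at least 12.5-fold higher in soleus than in psoas. The adjusted p was 0.00154 for psoas vs EDL (2.24e-09 to 0.00876 over 23 alternatives) and 0.000843 for soleus vs psoas (4.32e-08 to 0.00754), by edgeR's quasi-likelihood test. Between soleus and EDL, the log2 difference of -0.95 ± 0.43 (SE) had an adjusted p of 0.153 and was not called.

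Hoxa11, which patterns the forearm and lower leg, had 98, 146, and 74 reads in EDL, 0, 0, and 0 in psoas, and 19, 31, 17, and 12 in soleus. These were 2.29, 2.75, and 4.06 normalized CPM in EDL and 1.30, 0.927, 1.36, and 0.633 in soleus. The 3 muscles were apart from each other, with EDL above soleus and soleus above psoas. Hoxa11 was at least 18.9-fold higher in EDL than in psoas (adjusted p = 0.000834, 3.99e-09 to 0.0045 over 23 alternatives) and at least 6.56-fold higher in soleus than in psoas (adjusted p = 0.000486, 1.41e-06 to 0.00394). Soleus differed from EDL by -1.53 ± 0.35 on the log2 scale (SE), and the adjusted p of 0.0169 missed the threshold. The calls of Hoxa11 and Hoxa13 against psoas held in all 23 alternatives run, including each fit without 1 library and the fits with read trimming as a term.

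Of the exon bases of Hoxa11, 35.0% are shared with exons of Hoxa11os on the opposite strand. The library kit marks strand, but the strand setting of the counting is not given in the sources used here, so reads of the 2 genes may not be fully separated. Hoxa11os itself had 39, 47, and 26 reads in EDL, none in psoas, and 5, 8, 5, and 0 in soleus. It was at least 6.69-fold higher in EDL than in psoas, and its adjusted p of 0.0101 missed the threshold. Hoxa13 shares no exon bases with another annotated gene.

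Tendon genes moved with Hoxa11 and Hoxa13. All 12 genes of a tendon list (Scx, the tendon transcription factor, Tnmd, Mkx, Fmod, Kera, Thbs4, Comp, Chad, Col11a1, Cilp2, Wif1, and Tnc) were called lower in psoas than in EDL, where 1.57% of all genes were. Of them, 8 were called higher in soleus than in psoas, where 2.99% of all genes were. None was called between soleus and EDL by edgeR (8 had an unadjusted p under 0.05, where 35% of all genes did). The list was chosen with earlier results known. Col11a1, Kera, Wif1, Tnmd, Cilp2, and Tnc are among the genes the study listed for a principal component that separates these same libraries by muscle. These counts are therefore a description and no independent support. The largest log2 fold changes in psoas vs EDL were -6.19 for Wif1, -5.85 for Cilp2, and -5.34 for Col11a1. Their summed level was 916, 941, and 894 normalized CPM in EDL 1, 2, and 3, 33.8, 87.2, and 46.5 in psoas, and 288, 614, 121, and 338 in soleus, and none of the 12 was at 0 throughout a muscle. Within soleus, the library with the lowest summed tendon level, soleus 3, had the highest Hoxa13 level. Its Hoxa11 level (1.36 normalized CPM, 17 reads) was close to that of soleus 1 (1.30, 19 reads). Soleus 3 is 1 library, the shallowest and the youngest at 32 days, and its sex is not given. The part of tendon RNA in the levels of Hoxa11 and Hoxa13 was not tested beyond these values. Of 11 fibroblast genes, 2 (Dcn and Pi16) were called lower in psoas than in EDL, where 1.57% of all genes were. Another count, 4 (among them Osr1, Dcn, and Pdgfra), was called lower in soleus than in EDL, where 2.18% of all genes were. An unadjusted p under 0.05 was found for 9 in psoas vs EDL, 9 in soleus vs EDL, and 2 in soleus vs psoas, where 29%, 35%, and 28.4% of all genes had one. The median log2 fold change of the list was -1.15, -1.01, and 0.21. Summed levels were 2101 to 3689 normalized CPM in EDL, 712 to 1086 in psoas, and 714 to 1407 in soleus.

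Hoxa10, next to Hoxa11 in the cluster and active in the thigh and lumbar region, was read in all libraries and was highest in EDL. Its normalized CPM was 11.7, 11.3, and 16.6 in EDL, 6.18, 5.77, and 6.09 in psoas, and 5.06, 7.60, 7.66, and 6.70 in soleus. EDL was above both other muscles without overlap, and psoas lay within the range of soleus. On the log2 scale, psoas vs EDL differed by -1.13 ± 0.21 (SE) with an adjusted p of 0.0106 (0.000136 to 1 over 23 alternatives), just past the threshold of 0.01. Soleus vs EDL differed by -0.96 ± 0.20 with an adjusted p of 0.00771 (0.000233 to 1), just under a fold of 2. Neither was called, and each turned into a call in some alternatives, among them the fit without soleus 3 (-1.16 with adjusted p = 0.00917 in psoas vs EDL, and -1.07 with adjusted p = 0.0099 in soleus vs EDL) and, for soleus vs EDL, the fit without psoas 1 (-1.01, adjusted p = 0.00721). The upper ends of both ranges are from glmTreat, which tests for a difference of more than 2-fold. The other alternatives reached 0.0322 in psoas vs EDL and 0.0482 in soleus vs EDL.

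Hoxa9 was lowest in soleus. It had 4.48, 6.14, and 6.21 normalized CPM in EDL, 8.23, 4.69, and 4.60 in psoas, and 3.01, 3.86, 3.43, and 2.11 in soleus. All soleus libraries were below all EDL and psoas libraries, and EDL and psoas overlapped. Soleus differed by -0.85 ± 0.28 on the log2 scale from EDL (SE, adjusted p = 0.0539) and by -0.92 ± 0.28 from psoas (adjusted p = 0.0475), and neither was called. Within a library, Hoxa10 took 72.2%, 64.8%, and 72.8% of the reads of Hoxa9 and Hoxa10 together in EDL, 42.9%, 55.2%, and 57.0% in psoas, and 62.7%, 66.3%, 69.1%, and 76.1% in soleus. This share does not depend on the scaling of libraries, and it was lower in each psoas library than in any other. Hoxa9, Hoxc10, and Pbx3, and the shares of neighbouring genes, were singled out after their values were seen.

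Hoxa7, Hoxa5, and Hoxa4, the lower HoxA paralogs, were not called in any comparison. Hoxa7 ranged from 0.753 to 2.40 and Hoxa5 from 0.254 to 0.845 normalized CPM over the 10 libraries, and the muscles overlapped in both. Hoxa4 had 3 to 14 reads in the soleus libraries and 0 to 11 elsewhere, and psoas 2 had none. Along HoxA, the log2 fold change of psoas vs EDL was 0.37 for Hoxa4, -0.06 for Hoxa5, 0.34 for Hoxa7, 0.07 for Hoxa9, and -1.13 for Hoxa10, and Hoxa11 and Hoxa13 had no reads in psoas.

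In HoxD, none of the 3 genes analysed was called in psoas vs EDL by edgeR, and 1, Hoxd10, had an unadjusted p under 0.05 (DESeq2 called neither Hoxd8 nor Hoxd9 and gave no adjusted p for Hoxd10). Hoxd10, which acts in the hindlimb and its motor neurons, had 16, 25, and 11 reads in EDL, 3, 0, and 0 in psoas, and 5, 11, 3, and 0 in soleus. EDL was above both other muscles. The summed counts, corrected for depth, gave a level 10.3 times as high in EDL as in psoas (95% counting interval 3.34 to 51.6) and 5.40 times as high in soleus as in psoas (1.59 to 28.5). These intervals cover counting error in the pooled reads only and leave out the spread between libraries, so they are no test. Neither difference was called by edgeR (adjusted p = 0.0504 and 0.162). Hoxd10 passed the minimum of reads only with the EDL libraries, where it was highest. Hoxd10 was picked out for its low counts in psoas after its values were seen, and 5.73% of its exon bases are shared with Gm28309 on the same strand.

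Hoxd9 had 4 to 46 reads per library and was called in no comparison. Its normalized CPM was 0.549 to 0.867 in EDL, 0.283 to 0.818 in psoas, and 0.658 to 1.12 in soleus. Hoxd8, the member with the highest mean FPKM, had 6.07, 4.33, and 5.49 normalized CPM in EDL, 10.9, 4.25, and 3.97 in psoas, and 9.99, 8.70, 14.9, and 10.9 in soleus. Soleus was above EDL in all libraries, and psoas 1 stood with soleus while psoas 2 and 3 were just below EDL. For Hoxd8, soleus vs EDL stood at 1.07 ± 0.35 on the log2 scale (SE) with an adjusted p of 0.0521, and soleus vs psoas at 0.77 ± 0.34 with one of 0.166. Without psoas 1, the latter was 1.41 with an adjusted p of 0.00946, and it passed. The range over 23 alternatives was 0.00946 to 1.

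**Figure D3:**
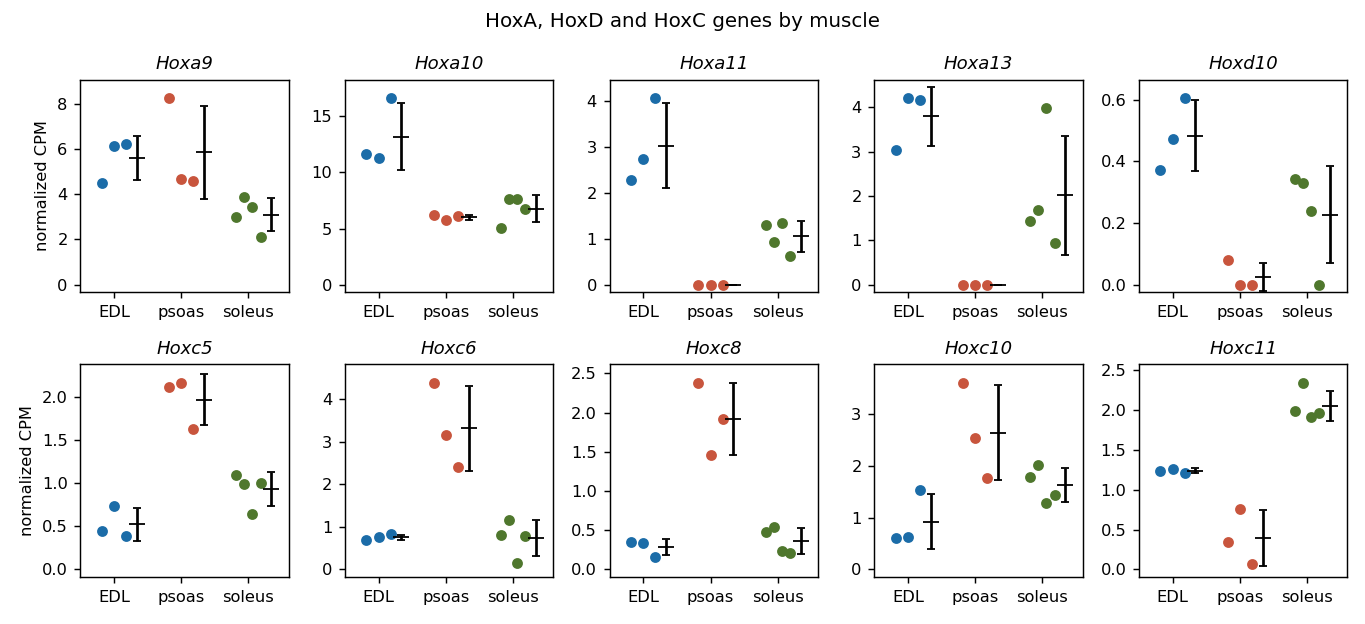
Normalized CPM (vertical axis, 1 scale per gene) of 10 HoxA, HoxD, and HoxC genes in EDL (n = 3), psoas (n = 3), and soleus (n = 4), with 1 point per library and the mean ± SD beside it. Psoas is at 0 for Hoxa11 and Hoxa13, lowest for Hoxc11, and highest for Hoxc5, Hoxc6, and Hoxc8.

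HoxC genes lie on the plus strand of chromosome 15, with Hoxc11 first (102954427 to 102957708), then Hoxc10, Hoxc9, Hoxc8 (102990607 to 102994111), Hoxc6 (102998257 to 103011881), Hoxc5 (102967443 to 103017429), and Hoxc4. The 6 genes from Hoxc4 to Hoxc10 had higher levels in each psoas library than in any EDL library, and Hoxc11 had lower ones. For Hoxc4 the gap was narrow, with 0.283 normalized CPM from 4 reads in psoas 3 against 0.234 from 10 reads in EDL 1. Of all genes, 13.4% were higher in each psoas library than in any EDL library. The median log2 fold change of the 7 genes in psoas vs EDL was 1.60, against 0.01 over all genes.

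Hoxc8, active at the level of the thorax, had 0.35, 0.339, and 0.165 normalized CPM in EDL, 2.38, 1.46, and 1.91 in psoas, and 0.479, 0.538, 0.239, and 0.211 in soleus. Each psoas library was above every library of the other muscles, and EDL and soleus overlapped. Psoas vs EDL gave a log2 fold change of 2.67 ± 0.45 (SE) with an adjusted p of 0.00615 (1.21e-05 to 0.05 over 23 alternatives). Soleus vs psoas gave -2.33 ± 0.42 with an adjusted p of 0.00355 (5.12e-05 to 0.0617). Both calls rest on low counts, with 15, 18, and 3 reads in EDL and 7, 18, 3, and 4 in soleus against 90, 23, and 27 in psoas. The call of psoas vs EDL was lost without EDL 1 (adjusted p = 0.0267), EDL 2 (0.0289), psoas 1 (0.0248), psoas 2 (0.0155), psoas 3 (0.0176), or soleus 1 (0.0108). The call of soleus vs psoas was lost without psoas 1 (0.0206) or soleus 4 (0.0126).

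Hoxc6, active in the upper trunk, had 0.701, 0.754, and 0.824 normalized CPM in EDL, 4.38, 3.17, and 2.41 in psoas, and 0.821, 1.17, 0.16, and 0.792 in soleus. Psoas was again above both other muscles, which overlapped, and soleus 3 had only 2 reads. Hoxc6 was called lower in soleus than in psoas, with a log2 fold change of -2.11 ± 0.43 (SE) and an adjusted p of 0.00697 (3.01e-05 to 0.116 over 23 alternatives). For psoas vs EDL, a log2 fold change of 2.14 ± 0.46 (SE) had an adjusted p of 0.0161 (8.64e-05 to 0.191 over 23 alternatives) and missed the threshold. Without soleus 3, which is not part of that comparison but shares its estimate of the spread, it was 0.00334. Over the 10 fits without 1 library, 4 kept the call of soleus vs psoas, and the others (without EDL 1, EDL 2, psoas 1, psoas 2, soleus 1, or soleus 4) gave an adjusted p between 0.0111 and 0.0346.

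Hoxc5, a cervical and upper thoracic paralog, had 0.444, 0.735, and 0.385 normalized CPM in EDL, 2.11, 2.16, and 1.63 in psoas, and 1.095, 0.987, 0.638, and 1.003 in soleus. Psoas was above both other muscles without overlap. Its log2 fold change between psoas and EDL was 1.87 ± 0.35 (SE), and the adjusted p of 0.00948 (0.000182 to 0.178 over 23 alternatives) lay close to the threshold. It held in 1 of the 10 fits without 1 library, that without soleus 3, and the adjusted p was 0.0559 without EDL 1, 0.0183 without EDL 2, 0.0105 without EDL 3, between 0.0195 and 0.0323 without a psoas library, and 0.0153, 0.0145, and 0.0182 without soleus 1, 2, or 4. Between soleus and psoas it differed by -1.07 ± 0.32 (SE, adjusted p = 0.045), which was not called. Of the exon bases of Hoxc5, 5.37% are shared with Hoxc10 on the same strand, since its annotated span begins inside that gene.

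Hoxc9, the HoxC gene with the highest FPKM and a lower thoracic paralog, had 1.96, 2.41, and 2.86 normalized CPM in EDL, 6.41, 4.50, and 3.47 in psoas, and 3.97, 3.74, 3.35, and 2.69 in soleus. Psoas was above EDL, and soleus overlapped both. Its log2 fold change between psoas and EDL was 1.01 ± 0.27 (SE, adjusted p = 0.0373), not called by edgeR, while DESeq2 called it (1.05, adjusted p = 0.00814). Hoxc10, a lumbar and hindlimb paralog, had 0.607, 0.622, and 1.54 normalized CPM in EDL, 3.59, 2.54, and 1.77 in psoas, and 1.78, 2.004, 1.28, and 1.43 in soleus. All psoas libraries were above all EDL libraries, and soleus overlapped both. The log2 fold change between psoas and EDL was 1.60 ± 0.41 (SE), with an adjusted p of 0.0308 (0.00385 to 0.585 over 23 alternatives). The difference in Hoxc10 was uneven, since it was 2.32 on the log2 scale between the trimmed libraries and 0.20 between the untrimmed ones, EDL 3 and psoas 3. That of Hoxc9 was 1.32 and 0.28, and that of Hoxc4 was 1.84 and 0.37. Without EDL 3, the adjusted p of Hoxc10 in psoas vs EDL was 0.00516. Hoxc4 had between 1 and 26 reads per library, with a log2 fold change of 1.49 ± 0.56 (SE) between psoas and EDL (adjusted p = 0.104).

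For the HoxC genes called in psoas vs EDL, the difference was present among trimmed and among untrimmed libraries. Between the means of the trimmed libraries (2 against 2), it was 1.86 on the log2 scale for Hoxc5 and 2.48 for Hoxc8, and between the untrimmed ones (1 against 1) 2.08 and 3.54. Hoxc6 differed by 2.38 and 1.55. All soleus libraries were untrimmed, so that the comparisons with soleus within the untrimmed libraries have 1 library of the other muscle, and soleus differed from psoas 3 by -2.38 on the log2 scale for Hoxc8 and -1.71 for Hoxc6. In the mice with libraries of both muscles (psoas 1 with soleus 1, and psoas 3 with soleus 4), soleus differed from psoas by -2.31 and -3.18 for Hoxc8 and by -2.415 and -1.60 for Hoxc6. With read trimming as a term in the fit, the calls of psoas vs EDL held (adjusted p = 0.00572 for Hoxc5 and 0.00436 for Hoxc8). Those of soleus vs psoas did not, at -2.09 (adjusted p = 0.0249) for Hoxc8 and -1.89 (adjusted p = 0.0473) for Hoxc6, and with sex as a term the adjusted p of Hoxc8 was 0.0108.

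Hoxc11, the highest HoxC paralog analysed and active in the hindlimb and tail region, had 53, 67, and 22 reads in EDL, 13, 12, and 1 in psoas, and 29, 78, 24, and 37 in soleus. These were 1.24, 1.26, and 1.21 normalized CPM in EDL, 0.343, 0.761, and 0.0708 in psoas, and 1.98, 2.33, 1.91, and 1.95 in soleus. The 3 muscles did not overlap, with psoas lowest and soleus highest. Hoxc11 was called higher in soleus than in psoas, with a log2 fold change of 2.38 ± 0.47 (SE) and an adjusted p of 0.00614 (3.48e-06 to 0.0654 over 23 alternatives). Differences from EDL were not called by edgeR, at -1.65 ± 0.48 for psoas (adjusted p = 0.0495) and 0.73 ± 0.40 for soleus (adjusted p = 0.222). DESeq2 called the difference between psoas and EDL (adjusted p = 0.00521). The call of soleus vs psoas held in 3 of the 10 fits without 1 library and was lost without EDL 1, EDL 2, psoas 1, or any 1 of the 4 soleus libraries, with an adjusted p of 0.0121, 0.0118, and 0.0353 without EDL 1, EDL 2, or psoas 1, and of 0.0128 to 0.0197 without a soleus library. With read trimming as a term, the log2 fold change was 2.92 and the adjusted p 0.0121, and in the mice with both muscles soleus differed from psoas by 2.53 and 4.79, the latter against a single read in psoas 3.

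The counts of Hoxc10 and Hoxc11 can also be given as shares within each library, which do not depend on the scaling of libraries. Since psoas was above EDL for Hoxc10 and below it for Hoxc11, a lower Hoxc11 share than in EDL follows from these levels. Hoxc11 took 67.1%, 67.0%, and 44.0% of the reads of both genes together in EDL, 8.73%, 23.1%, and 3.85% in psoas, and 52.7%, 53.8%, 60%, and 57.8% in soleus. Each psoas library was below every other library. Such shares were computed for 4 pairs of neighbours, chosen after the values were seen, and they are no independent support. Hoxc8 took 27.0%, 24.5%, and 35.5% of the reads of Hoxc8 and Hoxc9 in psoas, above the 5.46% to 15.2% in EDL and the 6.67% to 12.6% in soleus. Hoxd10 took 8.82%, 0%, and 0% of the reads of Hoxd10 and Hoxd9 in psoas, 35.2% to 52.4% in EDL, and 0% to 33.3% in soleus, so that soleus overlapped psoas. The starts of Hoxc10 and Hoxc11 are 12369 bases apart. On the other side of Hoxc11 lies Hotair, a long noncoding RNA gene on the minus strand (chromosome 15, 102944062 to 102947730). Hotair had 18, 19, and 5 reads in EDL, 0, 0, and 0 in psoas, and 9, 29, 7, and 12 in soleus. It was at least 2.19-fold higher in EDL than in psoas (adjusted p = 0.00615, 0.000996 to 0.036 over 22 alternatives) and at least 4.16-fold higher in soleus than in psoas (adjusted p = 0.000869, 3.22e-05 to 0.00878). The first of these calls was lost in the fits without EDL 1, EDL 2, psoas 1, psoas 2, psoas 3, soleus 1, or soleus 4. The list of noncoding genes of the Hox clusters holds 14 genes, of which Hotair and Hoxa11os were analysed. A further antisense RNA gene, Hoxd3os1 of HoxD, is not on that list and was added after its values were seen. It had between 2 and 26 reads per library and was called in no comparison, with log2 fold changes of -0.02 in psoas vs EDL (adjusted p = 0.985), -0.15 in soleus vs EDL, and -0.12 in soleus vs psoas.

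Hoxb7 and Hoxb4 were the 2 HoxB genes analysed, and neither was called. Hoxb7, a thoracic paralog, had 0.677, 0.792, and 0.549 normalized CPM in EDL, 0.501, 0.634, and 0.637 in psoas, and 0.205, 0.808, 0.797, and 0.475 in soleus. The muscles overlapped, and the log2 fold changes lay between -0.23 and -0.01 in the 3 comparisons. Hoxb4, a cervical paralog, had at most 16 reads in a library and none in soleus 1 and soleus 3.

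**Figure D4:**
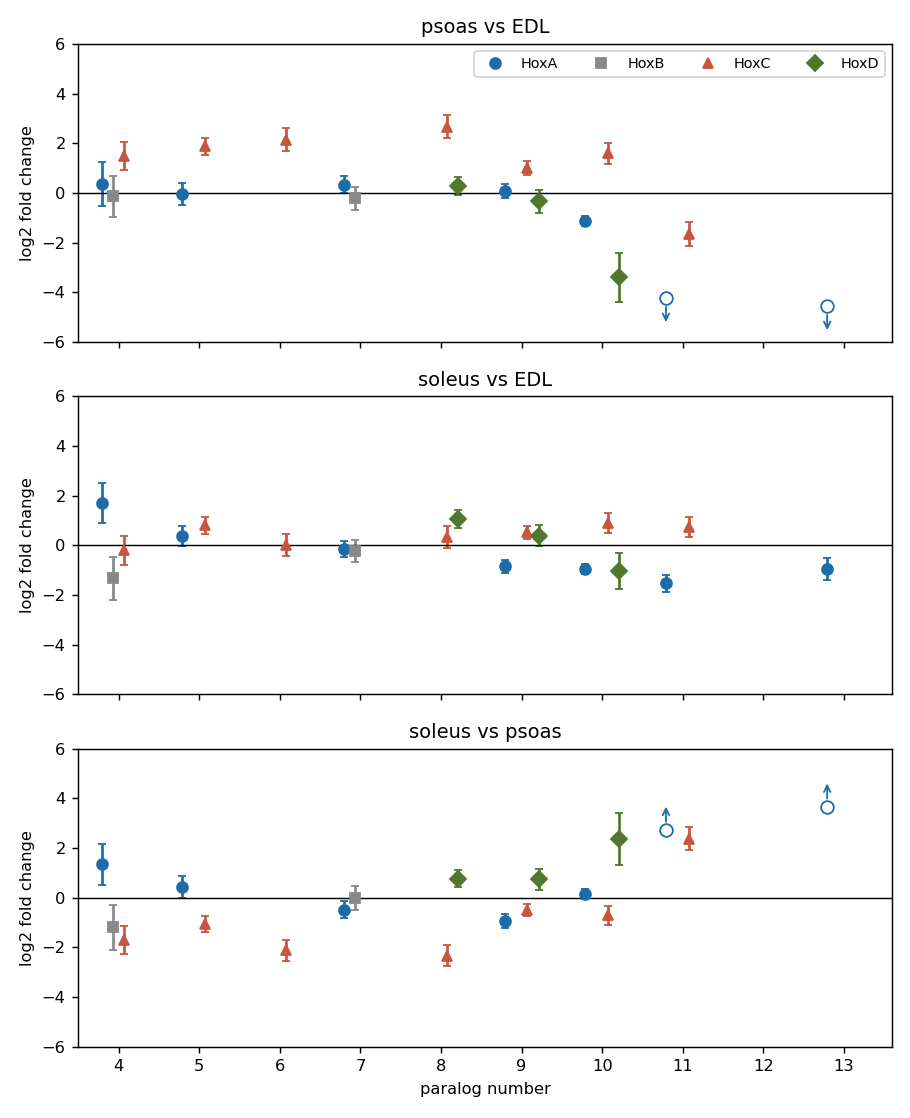
Log2 fold change (vertical axis) of the 19 Hox genes by paralog number (horizontal axis) in the 3 comparisons, with the SE of the fit as bars and a symbol per cluster. Open symbols with arrows are the bounds for Hoxa11 and Hoxa13, which had no reads in psoas, and the value of Hoxd10 against psoas rests on 3 reads there. In psoas vs EDL the HoxC genes are above 0 up to Hoxc10, and all genes of paralogs 11 and 13 are below 0.

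For paralog 10, the log2 fold changes of psoas vs EDL pointed in different directions, at -1.13 for Hoxa10, 1.60 for Hoxc10, and -3.40 for Hoxd10, the last from 3 reads in psoas. For paralog 9, they were 0.07 for Hoxa9, 1.01 for Hoxc9, and -0.34 for Hoxd9. Paralogs 4 to 8 were called in HoxC alone, though the differences between clusters were not tested.

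Of the Pbx genes, neither of those analysed was called. Pbx2, a broadly used one, had 5.14, 5.03, and 7.69 normalized CPM in EDL, 6.52, 7.99, and 6.02 in psoas, and 7.87, 9.66, 7.89, and 7.18 in soleus. The muscles overlapped, with a log2 fold change of 0.46 ± 0.21 (SE) between soleus and EDL (adjusted p = 0.137). Pbx3 was highest in EDL, at 1.61, 1.23, and 1.81 normalized CPM, against 0.779 to 0.95 in psoas and 0.748 to 0.958 in soleus. EDL did not overlap with either, and the differences from EDL were -0.80 ± 0.30 for psoas (SE, adjusted p = 0.1002) and -0.85 ± 0.28 for soleus (adjusted p = 0.0516), neither called.

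Meis1, which marks the proximal limb and blood stem cells in the embryo and adult, had 1.99, 1.94, and 1.26 normalized CPM in EDL, 4.96, 2.09, and 2.62 in psoas, and 2.19, 3.14, 4.31, and 3.27 in soleus. EDL was below both other muscles without overlap, and psoas and soleus overlapped. Meis1 differed from EDL by 0.90 ± 0.36 on the log2 scale in psoas (SE, adjusted p = 0.121) and by 0.88 ± 0.34 in soleus (adjusted p = 0.0921), and neither was called. Of the exon bases of Meis1, 18.3% are shared with other annotated genes. Meis2 had 2 to 28 reads per library and the lowest FPKM of the members, between 0.00854 and 0.0532, and its muscles overlapped.

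**Figure D5:**
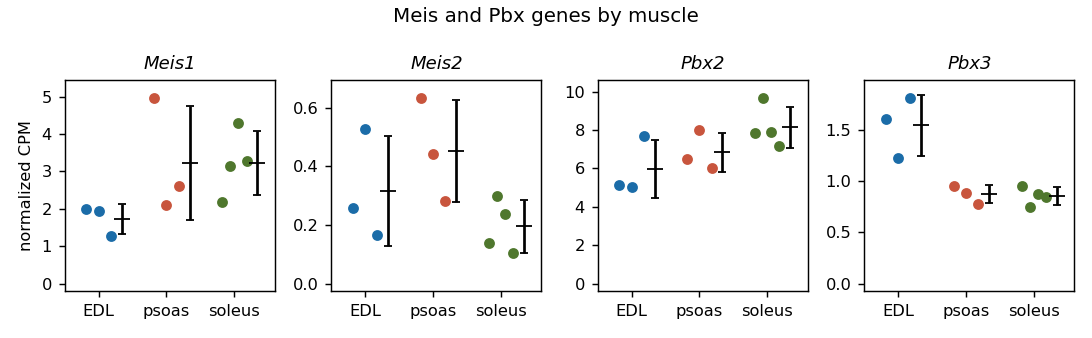
Normalized CPM (vertical axis, 1 scale per gene) of Meis1, Meis2, Pbx2, and Pbx3 in EDL (n = 3), psoas (n = 3), and soleus (n = 4), with 1 point per library and the mean ± SD beside it. Pbx3 is highest in the EDL libraries, and Meis1 is lowest there.

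Further genes of the pathway were read from fixed lists. Of the 11 other TALE homeodomain genes of the list, 6 were analysed. Mkx, which also belongs to the tendon list, was lower in psoas than in EDL (-3.97 ± 0.58 on the log2 scale, adjusted p = 0.00345) and higher in soleus than in psoas (2.97 ± 0.56, adjusted p = 0.00466), and Irx5 was lower in soleus than in psoas (-2.96 ± 0.62, adjusted p = 0.00847). Of all genes, 2.11% were called in psoas vs EDL and 5.69% in soleus vs psoas. In soleus vs EDL, none of the 6 was called by edgeR, and 2 had an unadjusted p under 0.05, where 5.77% and 35% of all genes did. The 18 genes of a list of chromatin regulators of Hox genes (Polycomb and Trithorax group genes such as Ezh2 and Kmt2a, histone demethylases, and Ctcf with cohesin) were all analysed. None was called in any comparison by edgeR, and 4 in each had an unadjusted p under 0.05, where 29%, 35%, and 28.4% of all genes did in psoas vs EDL, soleus vs EDL, and soleus vs psoas.

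Of 16 genes known for positions in limb and trunk, 13 were analysed. Sim1, a transcription factor gene, was higher in psoas and in soleus than in EDL (by 4.52 ± 0.28 and 3.07 ± 0.26 on the log2 scale, adjusted p = 5.16e-05 and 7e-05) and lower in soleus than in psoas (-1.46 ± 0.22, adjusted p = 0.00144). Tbx3 was higher in psoas and in soleus than in EDL (1.48 and 1.82), Meox2 lower in psoas than in EDL (-1.68), and En1 higher in soleus than in EDL (3.71). Of the 13, 2 were thus called higher and 1 lower in psoas vs EDL, where 0.54% and 1.57% of all genes were. In soleus vs EDL 3 were called higher (all genes 3.59%), and in soleus vs psoas 1 was called lower (all genes 2.71%). Of the lists of other cell types, satellite cells, endothelium, mural cells, and Schwann cells had no gene called by edgeR in any comparison, with 2, 3, and 2 (satellite cells), 6, 2, and 2 (endothelium), 2, 0, and 2 (mural cells), and 1, 0, and 1 (Schwann cells) of their 6 genes at an unadjusted p under 0.05 in psoas vs EDL, soleus vs EDL, and soleus vs psoas, against the shares of 29%, 35%, and 28.4% of all genes. Of the adipocyte genes, Pck1 was called higher in soleus than in EDL, and of the macrophage genes, Mrc1 was called lower in psoas and in soleus than in EDL. In the same order of comparisons, 2, 5, and 3 of 5 adipocyte genes and 4, 3, and 0 of 5 macrophage genes had an unadjusted p under 0.05. Of the 6 muscle fiber genes, Myh4 and Pvalb were lower and Mb higher in soleus than in each fast muscle. In soleus vs EDL, 2 were called lower and 1 higher, where 2.18% and 3.59% of all genes were. In soleus vs psoas, 3 were called lower and 1 higher, where 2.71% and 2.99% of all genes were. The part of cell types other than those of tendon in the levels of Hox genes was not tested either.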

How the data were processed

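Muscle tissue had been kept in RNAlater, and total RNA libraries (TruSeq Stranded Total RNA with Ribo-Zero Globin) were sequenced on an Illumina NextSeq instrument. The authors made the deposited counts, which are raw read counts per gene, by trimming 4 of the 10 libraries with Trimmomatic 0.32, aligning to mouse GRCm38.p4 with TopHat2 2.1.1, and counting over exons in R. The strand setting, the treatment of reads that match several places, and the run of each library are not given in the sources used here. Genes under 10 reads in all but at most 2 libraries were left out before deposit, and all 16112 genes of the tables have at least 10 reads in at least 3 libraries. Columns of per-sample values not used number 0.

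Counts of the 10 libraries were tested in 1 fit with edgeR 4.0.16 (TMM, quasi-likelihood F-test, Benjamini-Hochberg over all genes, R 4.3.3), without covariates. A call needed more than a 2-fold difference at an adjusted p below 0.01. FPKM were counts per kilobase of exon union (GENCODE M21, found for 16032 genes), scaled by DESeq2 1.42.0 size factors, and normalized CPM used TMM. Alternatives were DESeq2, limma 3.58.1 with voom, glmTreat (a test for more than a 2-fold difference), other scalings and filters, batch, sex, and animal terms, and each library left out, 23 settings in all. In psoas vs EDL, the upper ends of the ranges of Hoxc5, Hoxc6, Hoxc8, and Hoxc10 are from glmTreat. The test was run on simulated data first. A gene that the symbols select is not reported here. Members and lists were chosen with earlier results of these data known. Values in every library are given for each called member and for the member of highest FPKM in each cluster and cofactor family, and list genes by up to 3 examples of the largest fold among those called. The p-values measure the spread between these libraries, some of which share an animal. Same-numbered libraries share an animal code only in psoas 1 and soleus 1, and replicate numbers were not used as a pairing.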

Additional observations from a re-analysis of the deposited data

Results flagged for a closer look

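Hoxc11 in soleus stood out for 1 library. Soleus 2 was at 2.333 normalized CPM (78 counts), and the other 3 soleus libraries lay between 1.914 and 1.984. The gap to the nearest library took 0.832 of the whole range, just over Dixon's 95% critical value for 4 samples. This was 1 of 27 soleus values tested, and chance flags about 1 in 20 groups.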

How the results depend on the processing

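Hoxa11 and Hoxa13 were called against psoas in all 23 alternatives. The number of members called in psoas vs EDL (4) was 9 with a threshold of 0.05 or with DESeq2, 2 with glmTreat, with the 2 muscles alone, or with the replicate block, and 2 to 6 with 1 library left out. In soleus vs EDL (0) it was 1 with a threshold of 0.05, DESeq2, limma-voom, or the animal as a random effect (Hoxa11), 1 with upper-quartile scaling or sex as a term (Hoxa10), and 0 to 1 with 1 library left out. The run proxy was trimming with age. In soleus vs psoas (5) it was 3 with the 2 muscles alone, 2 with glmTreat, the replicate block, read trimming, or the run proxy, and 2 to 5 with 1 library left out. None of the 18 gene comparisons recomputed under the alternatives changed direction, and those of other members were not tabulated. Over all genes, the main calls (340, 929, and 917) became 1095, 1520, and 1382 with DESeq2, 1233, 1853, and 1563 with a threshold of 0.05, 27, 185, and 176 with glmTreat, 153, 876, and 729 with the 2 muscles alone, 146, 586, and 539 with the replicate block, 605, 371, and 566 with read trimming, 757, 251, and 475 with the run proxy, and 865, 786, and 958 with sex as a term (without soleus 3, whose sex is not given). With upper-quartile scaling, the median of all genes in soleus vs EDL was -0.14 on the log2 scale. The replicate numbers marked a shared animal code in 1 of 9 pairs (psoas 1 with soleus 1) and were not taken as a pairing, since deviations of same-numbered libraries correlated at -0.234 to 0.503, over 0.1 in 4 of 9 pairs, and 6 of 20 best matches shared a number.

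Shares of the summed Hox FPKM moved by more than 1 SD as follows. Without length correction, HoxA took 66.75% in EDL, 38.77% in psoas, and 40.72% in soleus, HoxB 2.161% in EDL and 2.124% in psoas, and HoxC 15.34% in EDL and 41.79% in psoas. Without members that overlap another gene, HoxA took 54.4%, 23.21%, and 29.16%, HoxB 4.878% in EDL and 4.954% in psoas, HoxC 19.67% in EDL, and HoxD 21.06%, 25.2%, and 40.25%. In untrimmed libraries alone, HoxB took 2.273% in EDL and HoxA 35.86% in psoas. The cause was not tested, beyond what leaving out genes or libraries does by construction. Low counts limit Hoxc4, Hoxc8, Hoxb4, Hoxd10, and Meis2.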
